A study of Mus musculus with 6 samples.

Results

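Molecular chaperone genes were examined in the epididymal white fat of male mice, a visceral depot, after 24 h without food. The genes were those of the heat shock protein families HSP70 and HSP110 (Hspa, Hsph), HSP90, the small heat shock proteins (Hspb), the mitochondrial chaperonin (Hspd, Hspe), the J-proteins (Dnaja, Dnajb, Dnajc) and the cytosolic chaperonin (Cct). They were taken by a rule on gene names, chosen with earlier results of these data known. Hspa5 and Hsp90b1, the HSP70 and HSP90 proteins of the endoplasmic reticulum (ER), were left out. The tables analysed here held 24 such genes, of 3162 genes in all and of 78 protein-coding genes of these names in the GRCm38 annotation. They covered 12 of 13 HSP70 and HSP110 genes, 3 of 8 small heat shock genes, 6 of 45 J-protein genes, 1 of 2 HSP90 genes, 1 of 2 mitochondrial chaperonin genes and 1 of 8 cytosolic chaperonin subunit genes.

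Bulk RNA sequencing had been done on 3 fasted and 3 normally fed mice. All 6 were wild-type male C57BL/6J animals aged 16 weeks, and each library was made from weighed fat tissue. The study asked how short starvation changes the transcriptome and lipid metabolism of this depot. Expression is given in FPKM, fragments per kilobase of transcript, scaled to the mapped fragments of the library. Comparisons between libraries still depend on how the libraries are scaled, and results under other scalings are given below.

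Chaperones bind unfolded or partly folded proteins and keep them from clumping. HSP70 proteins work in cycles of ATP use. J-proteins deliver the client protein and trigger ATP hydrolysis, nucleotide exchange factors such as the HSP110 proteins then release ADP, and HSP90 receives part of the clients for late maturation. Small heat shock proteins hold unfolded proteins without ATP, and chaperonins enclose a client in a barrel. Heat shock factor 1 (HSF1) drives many of these genes when unfolded proteins accumulate, and it binds heat shock elements, which are inverted repeats of the bases GAA.

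The 3162 genes held were not a whole transcriptome. Of them, 2999 averaged 1 FPKM or more and were tested, and in 93.4% of these the fasted and fed values did not overlap. By the test used below, 41.1% of them were higher and 49.4% lower in fasted fat. How the genes in the files were chosen is not given in the sources. If they were chosen for differing between fasted and fed mice, calls and small adjusted p-values follow in part from that choice. The genes tested include few with large p-values. The chaperone gene Dnajb14 had a limma p of 0.3043 and an adjusted p of 0.305. With those 2 so close, nearly all genes tested had p-values of 0.305 or less. The rule of choice itself was not tested. The counts below therefore describe these genes and not the transcriptome. Spearman correlations over these genes were 0.9698 to 0.9835 within a group. Sequencing depth is unknown, since the files give FPKM rounded to 2 decimals and no counts. Of the adipocyte markers listed, Plin1 and Lep were held, and Plin1, which coats the lipid droplet, ranged between 260 and 798 FPKM over the 6 libraries. No marker of epididymis or germ cells (0 of 10) or of mesothelium (0 of 5) was held, and these are not analysed here.

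Most of the chaperone genes were lower in fasted fat. Of the 24 genes, 19 fell, 4 rose and 1 was not called (limma, Benjamini-Hochberg adjusted p under 0.05 over 2999 genes). Among all genes tested, 49.4% fell and 41.1% rose. The median log2 fold change was -0.55 over the chaperone genes, against -0.34 over all genes tested. The groups did not overlap in any of the 24 genes (24 of 24), against the 93.4% given above, which says nothing particular about chaperones. The genes that rose were Hspa12b, Hspa1l, Dnajb6 and Dnajc7, and the gene not called was Dnajb14. With median-ratio scaling of the libraries, 12 fell and 4 rose, and the calls of all genes tested were then 1240 higher and 787 lower, against 1232 higher and 1482 lower as deposited. Under an adjustment over all 55450 annotated genes, Dnajb6 rose and Hspa12a fell, and no other chaperone gene was called. In bulk tissue, fewer cells of a type and less RNA per cell cannot be told apart.

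**Figure D1:**
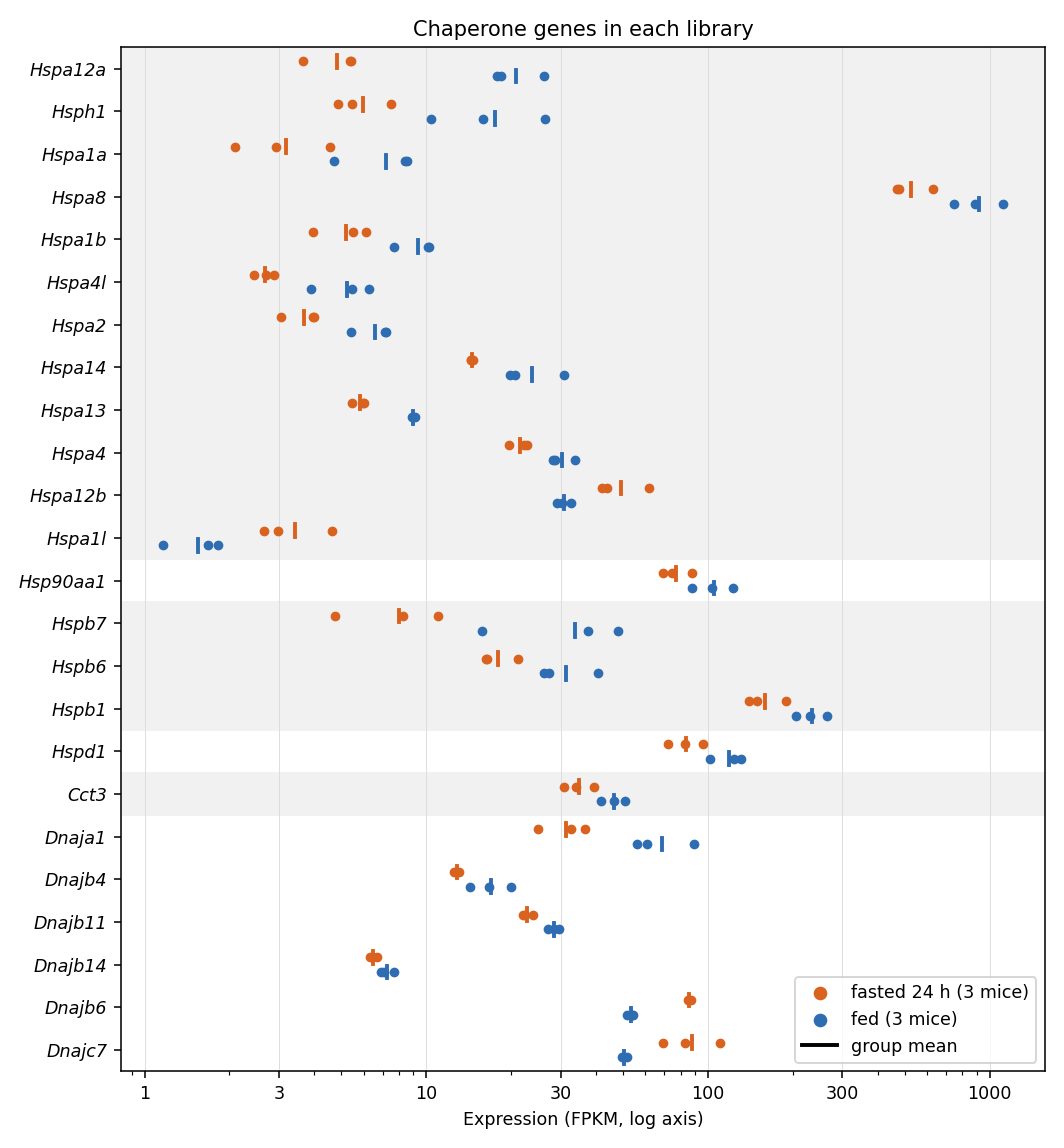
Expression of the 24 chaperone genes in FPKM on a log axis, with 1 dot for each of the 3 fasted and 3 fed mice and a vertical bar at each group mean, ordered by family in shaded bands from HSP70 and HSP110 at the top to J-proteins at the bottom. Fasted dots lie left of the fed dots in 20 genes and right of them in Hspa12b, Hspa1l, Dnajb6 and Dnajc7.

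The plot of values by library shows a spread of levels from 1.16 FPKM for Hspa1l to 1116 FPKM for Hspa8, both in fed libraries. Hspa8 alone made up 38.3% to 44.5% of the summed FPKM of the 24 genes in fasted libraries and 46.0% to 50.9% in fed libraries. The summed FPKM of the other 23 genes was 698 to 786 in fasted libraries and 876 to 1077 in fed libraries, with no overlap between groups. The summed FPKM of all 3162 genes held did not overlap either. It was 180058 to 188061 in fasted libraries and 190382 to 209201 in fed libraries.

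Because several of these genes are known HSF1 targets, their promoters were searched for heat shock elements. RefSeq promoter windows from 250 bases before to 50 bases after each annotated start (GRCm38.p6) were matched for 21 of the 24 genes. Hsp90aa1, Hspa8 and Hspa13 were not matched. An exact match to 3 alternating units with 2 bases between units (GAANNTTCNNGAA on one strand, TTCNNGAANNTTC on the other) was present in Hsph1, Hspd1 and Dnajb6. That is 3 of 21 matched chaperone genes (14.3%), against 179 of 27025 genes with a window (0.662%) and 12 of 2450 genes held here (0.49%). A match to at least 2 units (GAANNTTC or TTCNNGAA, each its own reverse complement, and both contained in the longer motifs) was present in 9 of 21 chaperone genes (42.9%). The share was 17% of all genes and 13.4% of genes held here (329 of 2450). The 9 include Hspa1a and Hspa1b, which carry the same element, and Dnajb4 and Hspb6, whose sequences are not printed below. Chaperone genes had 1.43 windows per gene and all genes 1.22. Matches describe letters in these windows and show no binding.

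The sequences below are shown because they carry these matches, which are in capitals; each reads 5′ to 3′ on the gene's own strand. Hsph1 has a 2-unit match at -33 to -26 from the first of its RefSeq starts (chr5:149636337-149636399, minus strand). A 3-unit match lies 37 to 49 bases after that start (chr5:149636287-149636310, minus strand). From its second start the same matches lie at -54 to -47 and 16 to 28. The 3-unit match of Dnajb6 lies at -46 to -34 from the first of its RefSeq starts (chr5:29735822-29735894, plus strand), and at -127 to -115 from the second. In Hspd1 overlapping 3-unit matches span -144 to -127 from the second of its RefSeq starts (chr1:55088029-55088106, minus strand). Dnaja1 has a 2-unit match at -124 to -117 from the first of its RefSeq starts (chr4:40722314-40722381, plus strand), and none in its other windows. Hspa1a has a 2-unit match at -104 to -97 (chr17:34972223-34972290, minus strand), and the same 68 bases stand before Hspa1b (chr17:34959305-34959372, minus strand). Hspb1 has a pair of 2-unit matches between -117 and -90 (chr5:135887772-135887859, plus strand).
Hsph1 before the start: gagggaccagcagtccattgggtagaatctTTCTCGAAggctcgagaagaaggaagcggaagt
Hsph1 after the start: atgctgcagaTTCTGGAAAGTTCt
Dnajb6: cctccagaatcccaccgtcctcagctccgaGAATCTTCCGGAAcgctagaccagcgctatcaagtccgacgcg
Hspd1: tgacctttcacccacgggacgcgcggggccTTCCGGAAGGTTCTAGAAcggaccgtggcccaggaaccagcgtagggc
Dnaja1: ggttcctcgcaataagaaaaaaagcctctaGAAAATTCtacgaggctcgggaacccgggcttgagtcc
Hspa1a and Hspa1b: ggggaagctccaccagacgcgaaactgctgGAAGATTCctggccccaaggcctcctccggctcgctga
Hspb1: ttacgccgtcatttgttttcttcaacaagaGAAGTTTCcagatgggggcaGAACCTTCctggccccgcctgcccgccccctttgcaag

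**Figure D2:**
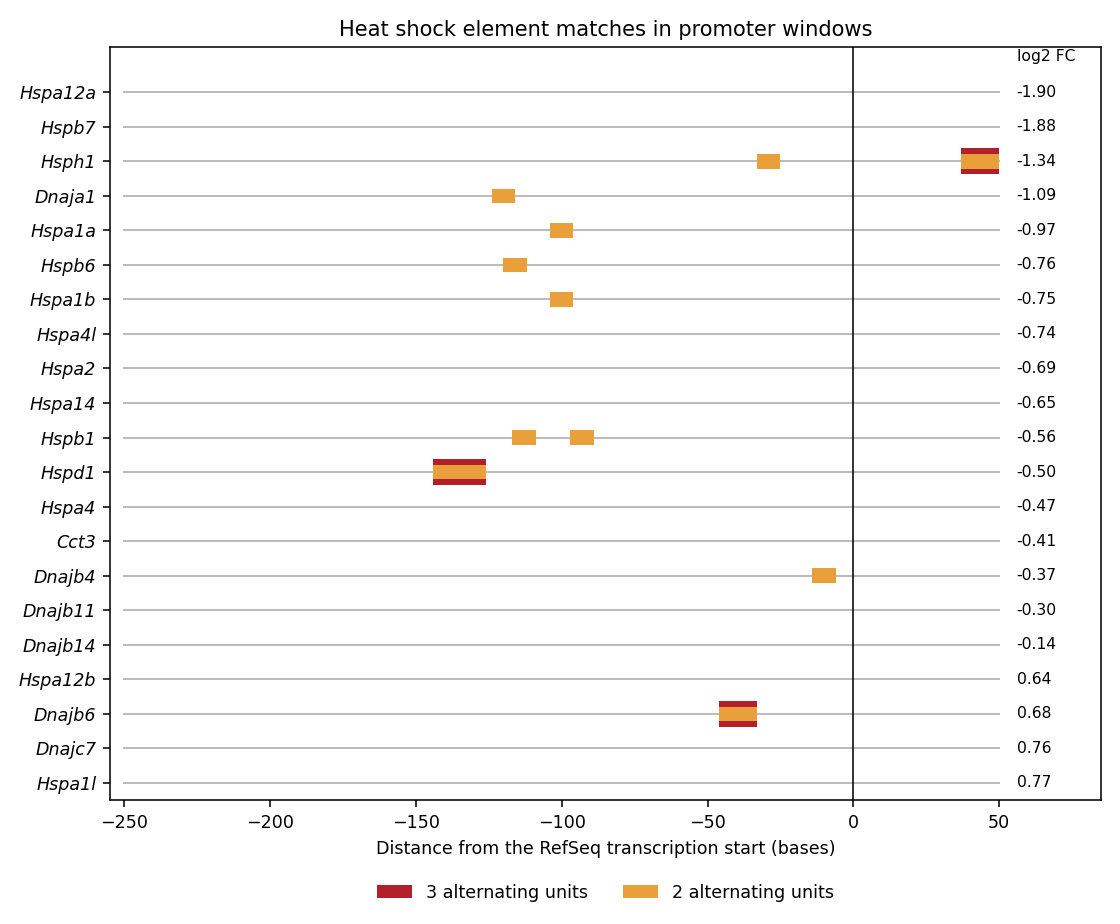
Positions of heat shock element matches in 1 promoter window for each of the 21 matched chaperone genes, against distance from the RefSeq start in bases; tall red bars are 3-unit and short orange bars 2-unit matches, and the number at the right is the log2 fold change, fasted minus fed. Of the 9 genes with a match, 8 had a negative log2 fold change, and of the 12 without a match, 9 did.

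The map of matches is ordered by log2 fold change. Genes with and without a match lie at both ends of it. Hspa12a (-1.90) and Hspb7 (-1.88), at the top, had no match in these windows, and Dnajb6 (0.68), near the bottom, had a 3-unit match.

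Of the 12 HSP70 and HSP110 genes, 10 fell (83.3%), and Hspa1l and Hspa12b rose (16.7%). Among all genes tested, 49.4% fell and 41.1% rose. Hspa8 encodes the constitutive HSC70, the abundant housekeeping member that also strips clathrin from vesicles and takes part in chaperone-mediated autophagy. The gene spans 40800984 to 40810087 of chromosome 9, plus strand (GRCm38). Its level was 470, 631 and 476 FPKM in fasted fat, against 747, 1116 and 889 FPKM in fed fat. Every fasted value was below every fed value, and fed replicate 2 was the highest of all 6. The log2 fold change was -0.80 ± 0.19 (SE, n = 3 per group; limma adjusted p = 0.00816), and the fasted mean was 57.3% of the fed mean.

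Hspa1a and Hspa1b encode the stress-inducible HSP70 and lie side by side on chromosome 17. Both were low in this tissue. Hspa1a was at 2.09, 4.54 and 2.93 FPKM in fasted fat, against 4.69, 8.56 and 8.39 FPKM in fed fat (log2 fold change -0.97 ± 0.28; limma adjusted p = 0.0139). Hspa1b was at 3.96, 6.11 and 5.50 FPKM in fasted fat, against 7.70, 10.1 and 10.2 FPKM in fed fat (-0.75 ± 0.19; limma adjusted p = 0.00886). The highest fasted and lowest fed libraries nearly met in Hspa1a and were further apart in Hspa1b. Their coding sequences are identical at 1915 of 1923 aligned bases (99.6%), so reads could be divided between them in either way, and their values are not independent. Opposite-strand exons of Gm20481 cover 564 of the 2967 exonic bases of Hspa1a.

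Hspa1l, the neighbour of Hspa1a on the opposite strand (34972703 to 34979285), went the other way. It encodes a constitutive HSP70 best known from testis. It was at 4.61, 2.65 and 2.98 FPKM in fasted fat, against 1.68, 1.82 and 1.16 FPKM in fed fat (log2 fold change 0.77 ± 0.21; limma adjusted p = 0.0120). Within a library the ratio of Hspa1a to Hspa1l was 0.453, 1.71 and 0.983 in fasted fat, against 2.79, 4.70 and 7.23 in fed fat. The ratio is given as a description, since this pair was picked after its values were seen. Exons of the antisense gene Gm10501 cover 1778 of the 2472 exonic bases of Hspa1l, and without strand information reads of the 2 genes cannot be told apart. Hspa1l has 83.3% coding identity with Hspa1a.

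Hspa2, an HSP70 gene that mouse spermatogenesis needs, was at 3.96, 4.01 and 3.04 FPKM in fasted fat, against 7.17, 7.11 and 5.40 FPKM in fed fat. It fell in the fasted mice (-0.69 ± 0.17 on the log2 scale; limma adjusted p = 0.00812). Hspa14, which encodes a ribosome-associated HSP70, was at 14.5, 14.6 and 14.4 FPKM in fasted fat, against 20.7, 30.9 and 19.8 FPKM in fed fat (-0.65 ± 0.18; limma adjusted p = 0.0120). The fasted libraries agreed closely for Hspa14, while fed replicate 2 stood above the other fed libraries. Hspa14 shares 321 of its 4057 exonic bases with Gm45902 on the same strand. Hspa13, an HSP70-like ATPase of microsomes, was at 5.47, 5.98 and 6.02 FPKM in fasted fat, against 9.10, 8.87 and 9.0 FPKM in fed fat (-0.55 ± 0.12; limma adjusted p = 0.00642). It had little spread in either group.

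The distant HSP70 relatives Hspa12a and Hspa12b diverged. Hspa12a spans 58795750 to 58943654 of chromosome 19, minus strand. The gene was at 5.40, 3.66 and 5.37 FPKM in fasted fat, against 18.4, 26.1 and 17.8 FPKM in fed fat. Hspa12a fell by the most of the 24 genes with all 6 libraries, at -1.90 ± 0.20 on the log2 scale (limma adjusted p = 0.000732). Hspb7 fell further on leaving out fed 3 (-2.33, against -2.00 for Hspa12a), fasted 2 (-1.93, against -1.75) or fasted 3 (-2.12, against -1.97). The fall of Hspa12a also passed over all annotated genes (adjusted p = 0.0135). Hspa12b, on chromosome 2 at 131127280 to 131146321, is known chiefly from endothelial cells. It was at 61.7, 43.7 and 42.2 FPKM in fasted fat, against 30.4, 32.8 and 29.2 FPKM in fed fat (log2 fold change 0.64 ± 0.16; limma adjusted p = 0.00982). Fasted replicate 1 was the highest, and the lowest fasted value still exceeded all fed values. The ratio of Hspa12a to Hspa12b within a library was 0.0876, 0.0838 and 0.127 in fasted fat, against 0.605, 0.798 and 0.609 in fed fat, again picked after the values were seen.

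Endothelial markers moved with Hspa12b. Of 5 listed, 3 were held (Pecam1, Tek and Emcn). All 3 rose by the same test, beside 41.1% of all genes tested, and none was at 0 in any library. Their summed level was 199 to 261 FPKM in fasted fat and 123 to 140 FPKM in fed fat. Their part in the rise of Hspa12b was not tested.

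The HSP110 genes, whose products are nucleotide exchange factors of HSP70, all fell as deposited, beside 49.4% of all genes tested. Hsph1, encoding HSP105, was at 5.46, 7.52 and 4.88 FPKM in fasted fat, against 10.4, 26.4 and 16.0 FPKM in fed fat. It fell to 33.9% of the fed mean (log2 fold change -1.34 ± 0.31; limma adjusted p = 0.00710), and the fed libraries differed among themselves more than the fasted ones. Hspa4 was at 19.7, 22.7 and 22.3 FPKM in fasted fat, against 28.3, 33.7 and 28.7 FPKM in fed fat (-0.47 ± 0.13; limma adjusted p = 0.0118). With median-ratio scaling that change was -0.27 (adjusted p = 0.0751). Its relative Hspa4l was at 2.88, 2.70 and 2.44 FPKM in fasted fat, against 3.91, 6.26 and 5.47 FPKM in fed fat (-0.74 ± 0.18; limma adjusted p = 0.00846).

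Hsp90aa1 encodes the inducible cytosolic HSP90, which matures kinases and steroid receptors. It was at 74.7, 87.6 and 69.4 FPKM in fasted fat, against 88.1, 123 and 103 FPKM in fed fat. Fasted replicate 2 and fed replicate 1 almost touched. The log2 fold change was -0.43 ± 0.16 (limma adjusted p = 0.0327), close to the median of all genes tested. Hsp90aa1 missed the threshold under median-ratio scaling (-0.22, adjusted p = 0.187) and quantile normalization (-0.17, adjusted p = 0.260), and on leaving out fed 2, fed 3, fasted 1 or fasted 3.

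All 3 small heat shock genes held were lower as deposited, beside 49.4% of all genes tested. Hspb7, known from heart and skeletal muscle, was at 4.73, 8.29 and 11.0 FPKM in fasted fat, against 37.5, 48.0 and 15.7 FPKM in fed fat (log2 fold change -1.88 ± 0.42; limma adjusted p = 0.00669). Fed replicate 3 was far below the other fed libraries and still above every fasted one. Hspb6, encoding HSP20, an actin-linked protein of smooth and striated muscle, was at 21.2, 16.3 and 16.4 FPKM in fasted fat, against 40.8, 26.1 and 27.3 FPKM in fed fat (-0.76 ± 0.20; limma adjusted p = 0.0103). Hspb1, encoding HSP25 in the mouse, was the most abundant of the 3. It was at 149, 189 and 139 FPKM in fasted fat, against 205, 265 and 231 FPKM in fed fat (-0.56 ± 0.16; limma adjusted p = 0.0137). Hspb1 missed the threshold under median-ratio scaling (-0.35, adjusted p = 0.0684) and under quantile normalization (-0.29, adjusted p = 0.0969).

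The muscle markers held moved in the opposite direction to these genes. Of 10 markers of smooth or striated muscle listed, 5 were held (Myh11, Tagln, Cnn1, Des and Myl9). Acta1, Ckm, Mb and Myh4, the markers listed for striated muscle alone, were not held, so these values do not follow striated muscle on its own. All 5 markers held rose, beside 41.1% of all genes tested. The groups overlapped in Myh11, which missed the threshold on leaving out fed 2, fed 3 or fasted 1. Their summed level was 187 to 317 FPKM in fasted fat and 76.5 to 166 FPKM in fed fat. None was at 0 in any library. Their part in the small heat shock values was not tested.

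The chaperonins were each represented by 1 gene. Hspd1 encodes HSP60, the barrel of the mitochondrial chaperonin. It was at 71.9, 83.2 and 95.7 FPKM in fasted fat, against 101, 124 and 131 FPKM in fed fat (log2 fold change -0.50 ± 0.15; limma adjusted p = 0.0174). Cct3 encodes the gamma subunit of the cytosolic chaperonin, which folds actin and tubulin. It was at 30.9, 39.4 and 34.1 FPKM in fasted fat, against 41.8, 50.9 and 46.3 FPKM in fed fat (-0.41 ± 0.14; limma adjusted p = 0.0245). Both missed the threshold under median-ratio scaling, at -0.30 (adjusted p = 0.126) for Hspd1 and -0.20 (adjusted p = 0.199) for Cct3, and with quantile normalization, at -0.26 (adjusted p = 0.151) and -0.25 (adjusted p = 0.133). So did Hspd1 on leaving out fed 3 or fasted 1, and Cct3 on leaving out fed 2, fed 3, fasted 1 or fasted 3.

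J-proteins went both ways, as the genes tested did. Of the 6 held, 3 fell (50%), 2 rose (33.3%) and 1 was not called. Among all genes tested, 49.4% fell and 41.1% rose, so the counts say nothing particular about J-proteins. Dnaja1 encodes the main cytosolic partner of HSC70 and lies on chromosome 4 at 40722150 to 40737149. It was at 36.6, 32.6 and 24.9 FPKM in fasted fat, against 60.6, 89.4 and 56.1 FPKM in fed fat, a fall of the mean to 45.7% (log2 fold change -1.09 ± 0.21; limma adjusted p = 0.00451). The highest fasted library stood well below the lowest fed one. Opposite-strand exons of Smu1 and Gm6297 cover 857 of its 8629 exonic bases.

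Dnajb6 and Dnajc7 were the J-protein genes that rose. Dnajb6, on chromosome 5 at 29735688 to 29818134, encodes a J-protein that keeps polyglutamine proteins from aggregating. It was at 86.9, 85.4 and 84.7 FPKM in fasted fat, against 54.3, 51.5 and 53.8 FPKM in fed fat. Both groups were tight, and the log2 fold change was 0.68 ± 0.10 (limma adjusted p = 0.00213, and 0.0393 over all annotated genes). Dnajc7, on chromosome 11 at 100582818 to 100620168, encodes a J-protein with tetratricopeptide repeats that bind both HSP70 and HSP90. It was at 110, 83.0 and 69.5 FPKM in fasted fat, against 51.6, 49.6 and 50.2 FPKM in fed fat (0.76 ± 0.17; limma adjusted p = 0.00689). Its fasted libraries were spread and its fed libraries close together. Opposite-strand exons of Cnp and Nkiras2 cover 441 of the 4863 exonic bases of Dnajc7, and those of Gm5129 cover 249 of the 6062 of Dnajb6.

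The other J-protein genes had smaller differences. Dnajb4, whose human form is also called HLJ1, was at 12.8, 13.1 and 12.5 FPKM in fasted fat, against 16.7, 20.0 and 14.4 FPKM in fed fat (log2 fold change -0.37 ± 0.14; limma adjusted p = 0.0391). Dnajb11, encoding the ER-lumen J-protein ERdj3, was at 22.4, 23.9 and 22.1 FPKM in fasted fat, against 28.4, 29.6 and 26.9 FPKM in fed fat (-0.30 ± 0.11; limma adjusted p = 0.0327). Dnajb14, an ER-membrane J-protein, was at 6.66, 6.31 and 6.49 FPKM in fasted fat, against 6.93, 7.70 and 7.06 FPKM in fed fat. Its log2 fold change of -0.14 had a 95% interval of -0.42 to 0.15 (limma adjusted p = 0.305), although the groups did not overlap. With median-ratio scaling the calls of Dnajb4 (-0.18, adjusted p = 0.221) and Dnajb11 (-0.10, adjusted p = 0.395) were lost, and they were also lost with quantile normalization and without most single libraries. Leaving out fed replicate 3 kept the call of Dnajb4, whereas that of Dnajb11 was lost without any one of the 6.

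**Figure D3:**
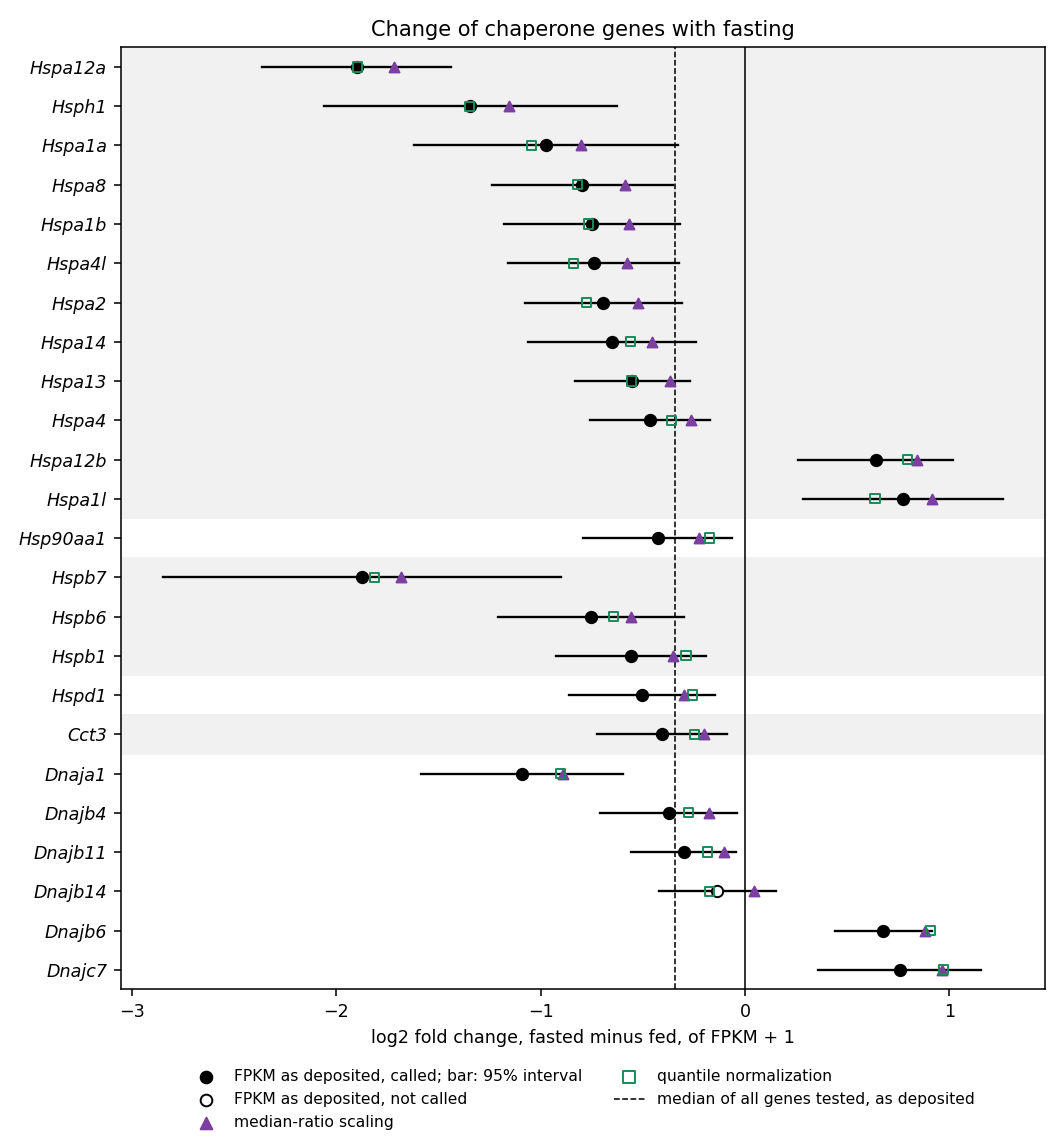
Log2 fold change, fasted minus fed, of FPKM + 1 for each chaperone gene, with 95% intervals (bars), filled circles where the gene was called, and the same value after median-ratio scaling (triangles) and quantile normalization (squares). The dashed line is the median of all genes tested (-0.34); Hspa12a (-1.90) and Hspb7 (-1.88) lie furthest left, and Dnajc7 (0.76) and Hspa1l (0.77) furthest right.

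The plot of changes shows how the scaling moves them. The median of all 2999 genes was -0.34 as deposited, -0.15 with median-ratio scaling (over 3000 genes) and -0.21 with quantile normalization. Relative to these medians, Hspa12a was at -1.56, -1.57 and -1.69, Hspb7 at -1.53, -1.54 and -1.60, and Hspa8 at -0.45, -0.44 and -0.61. Cct3 was at -0.06, -0.06 and -0.04 on the same footing, close to the median under each scaling. Of the 24 genes, 18 lay below the median of all genes as deposited and with median-ratio scaling, and 17 with quantile normalization. The 4 genes that rose stood 0.85 to 1.18 above the median across the 3 scalings.

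Among fed libraries, replicate 2 had the top value in 14 of the 19 chaperone genes that fell (73.7%), against 933 of the 1482 genes that fell in all (63.0%). Its median ratio to the mean of the other fed libraries was 1.27 for the 19 genes and 1.14 for the 1482, in FPKM + 1. Without fed replicate 2, 15 chaperone genes fell and 4 rose, and of 2994 genes tested 1110 fell and 1163 rose. Cct3, Hsp90aa1, Dnajb4 and Dnajb11 were then not called. Hspa8 had a log2 fold change of -0.64 (adjusted p = 0.0229) without that library. Among fasted libraries, replicate 2 had the top value in 12 of the same 19 genes (63.2%), against 369 of the 1482 (24.9%). Its median ratio to the mean of the other fasted libraries was 1.07 for the 19 genes and 0.963 for the 1482. Without fasted replicate 2, 17 chaperone genes fell and 4 rose, and of 2990 genes tested 1040 fell and 1133 rose. The order of libraries is a description and was not tested.

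The partners of these chaperones went both ways. From lists of 88 co-chaperones, exchange factors, chaperonin helpers, other chaperones and heat shock factors, 21 genes were held, of which 12 fell, 7 rose and 2 were not called. Among all genes tested, 49.4% fell and 41.1% rose. The median log2 fold change was -0.47 over the partners, against -0.34 over all genes tested. With median-ratio scaling 8 partners fell and 7 rose, and of 3000 genes tested 787 fell and 1240 rose.

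Of 31 co-chaperones of HSP90 and HSP70 listed, 7 were held, of which 6 fell and 1 rose as deposited, beside the 49.4% of all genes that fell. Their median log2 fold change was -0.56. Under median-ratio scaling Stip1, Fkbp4 and Ptges3l were still called lower, and St13, Ahsa1 and Chordc1 were not. Stip1, encoding HOP, which passes clients between HSP70 and HSP90, was at 30.2, 36.9 and 32.6 FPKM in fasted fat, against 42.7, 59.1 and 52.0 FPKM in fed fat (log2 fold change -0.60 ± 0.15; limma adjusted p = 0.00935), and -0.40 with median-ratio scaling. Fkbp4, encoding the steroid receptor co-chaperone FKBP52, was at 30.6, 26.8 and 25.2 FPKM in fasted fat, against 37.3, 51.7 and 43.7 FPKM in fed fat (-0.66 ± 0.15; limma adjusted p = 0.00721). For both genes no fasted library reached a fed one. Ptges3l (-0.88 ± 0.20) and St13 (-0.47 ± 0.15), which encodes the HSP70-interacting protein HIP, also fell. St13 missed the threshold under median-ratio scaling (-0.27, adjusted p = 0.209) and quantile normalization (-0.24, adjusted p = 0.212), and on leaving out fed 1, fed 3, fasted 1 or fasted 2. Ahsa1 (-0.42), encoding an activator of the HSP90 ATPase, was at -0.21 under median-ratio scaling (adjusted p = 0.195) and -0.22 under quantile normalization (adjusted p = 0.157), and it missed the threshold on leaving out fed 2, fed 3, fasted 1 or fasted 3. Chordc1 (-0.56), encoding an HSP90-binding protein, was at -0.37 under median-ratio scaling (adjusted p = 0.0714). It was also at -0.37 without fed replicate 2, where it missed the threshold, as it did on leaving out fasted 2 or fasted 3. Ahsa1 and Chordc1 were named after their values were seen. Ptges3l shares 605 of its 2108 exonic bases with Gm27029 on the same strand. The rise was that of Unc45b (0.74 ± 0.24), encoding a myosin chaperone of striated muscle and named after its values were seen. It was 0.45 without fasted replicate 1, and it missed the threshold without fed replicate 3 (adjusted p = 0.0538).

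Of 13 HSP70 exchange and release factors listed, 4 were held. Bag4 rose, Hspbp1 and Hyou1 fell and Bag6 was not called, beside 41.1% of all genes tested that rose and 49.4% that fell. Bag4, encoding a BAG-domain exchange factor also known as SODD, was at 22.2, 20.9 and 18.4 FPKM in fasted fat, against 13.1, 9.95 and 13.3 FPKM in fed fat (log2 fold change 0.72 ± 0.15; limma adjusted p = 0.00555). Hyou1, the HSP110 relative of the ER, had a change of -0.60 ± 0.12, and Hspbp1 one of -0.47 ± 0.13. Hspbp1 was at -0.27 with median-ratio scaling (adjusted p = 0.0621). Bag6 was at -0.22 ± 0.11 (limma adjusted p = 0.0775), and at 0.01 with quantile normalization. Of 7 heat shock factor genes listed, only Hsbp1, encoding an HSF1-binding protein, was held. It was at 134, 116 and 124 FPKM in fasted fat, against 142, 160 and 149 FPKM in fed fat and was not called (-0.27 ± 0.12; limma adjusted p = 0.0526, and 0.0480 with no filter on low genes). Hsf1 itself is not analysed here.

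**Figure D4:**
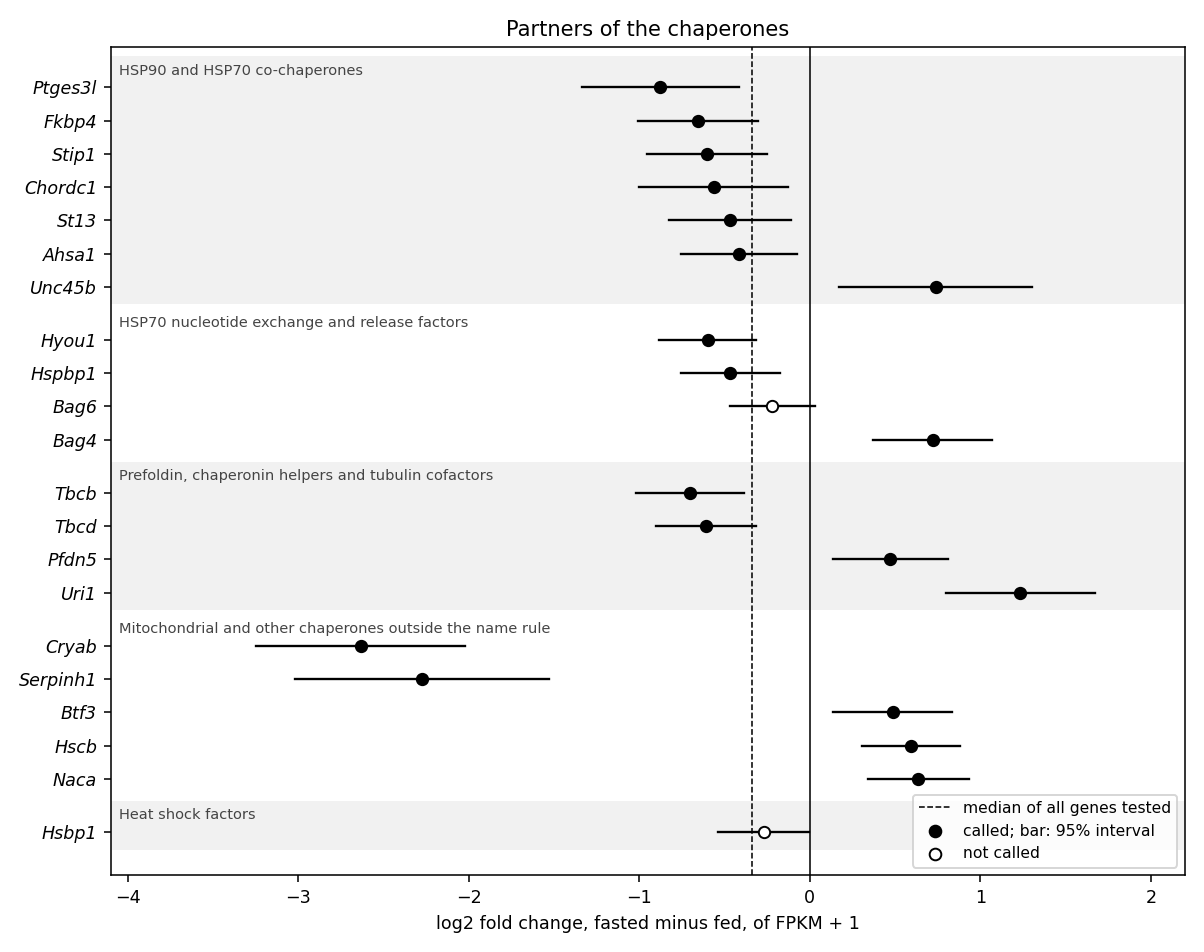
Log2 fold change, fasted minus fed, of FPKM + 1 for the 21 chaperone partner genes held, by list, with 95% intervals; filled circles were called and open circles not, and the dashed line is the median of all genes tested. Cryab (-2.64) and Serpinh1 (-2.27) lie furthest left and Uri1 (1.23) furthest right.

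The plot of partners has its widest range among chaperones that the name rule did not take. Cryab, encoding the small heat shock protein alpha-B crystallin, was at 42.4, 31.8 and 33.5 FPKM in fasted fat, against 153, 325 and 233 FPKM in fed fat. Its log2 fold change of -2.64 ± 0.26 (limma adjusted p = 0.000621) exceeded that of each of the 24 chaperone genes in size. Exons of Hspb2 on the opposite strand cover 252 of its 1479 exonic bases. Serpinh1, encoding the collagen chaperone HSP47, was at 70.0, 65.2 and 59.8 FPKM in fasted fat, against 208, 553 and 277 FPKM in fed fat (-2.27 ± 0.32; limma adjusted p = 0.00169). Both groups were far apart in each gene, and fed replicate 2 was the highest library in both. Naca (0.64 ± 0.13), encoding a subunit of the nascent polypeptide-associated complex on ribosomes, and Hscb (0.59 ± 0.12), encoding the J-protein of mitochondrial iron-sulphur cluster assembly, rose. In this list of 18 genes, 5 were held, of which 3 rose and 2 fell, beside 41.1% and 49.4% of all genes tested. The other gene that rose, Btf3 (0.49 ± 0.15), was named after its values were seen. It missed the threshold on leaving out fasted 1 or fasted 2.

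Of 19 prefoldin, chaperonin helper and tubulin cofactor genes listed, 4 were held. Uri1, encoding a prefoldin-like protein, was at 40.6, 46.3 and 32.7 FPKM in fasted fat, against 20.2, 13.3 and 15.8 FPKM in fed fat (log2 fold change 1.23 ± 0.19; limma adjusted p = 0.00216). Pfdn5, a prefoldin subunit gene, rose as well (0.47 ± 0.15), by 0.76 with quantile normalization. The tubulin cofactor genes Tbcb (-0.70 ± 0.14) and Tbcd (-0.61 ± 0.13) fell. Opposite-strand exons of Polr2i cover 325 of the 1442 exonic bases of Tbcb.

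Blood genes also differed between the groups. All 4 blood markers listed (Hbb-bs, Hba-a1, Hba-a2 and Alas2) were held and rose, beside 41.1% of all genes tested. Their summed level was 3864 to 9846 FPKM in fasted fat and 1844 to 2719 FPKM in fed fat. Alas2 passed the test with all 6 libraries and on leaving out fasted 2, and on leaving out any other it did not. The adipocyte markers Plin1 and Lep fell, with a summed level of 265 to 499 FPKM in fasted fat and 958 to 1423 FPKM in fed fat. The 1 macrophage marker held of 7, Itgam, fell as well, at 2.12 to 3.86 FPKM in fasted fat and 4.55 to 8.38 FPKM in fed fat. Cd3e, the 1 of 5 lymphocyte markers held, was at 0.89 to 0.98 FPKM in fasted fat and 0.15 to 0.23 FPKM in fed fat, with no overlap, and was not tested because its mean was under the minimum. The part of cell makeup in the chaperone values was not tested.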

How the data were processed

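Total RNA of 6 fat samples had been sequenced on libraries made by standard Illumina methods, per the labels' protocols. Values deposited by the authors are FPKM per Ensembl gene, with at most 2 decimals, per the file headers. RSEM and the builds mm10 and GRCm38.p6 are named in the submitters' processing notes; neither source used here names a version, an aligner or an annotation release. FPKM keeps no strand or depth. Symbols and coordinates came from GENCODE M21 (GRCm38), which matched 3158 of 3162 identifiers, and promoter windows from RefSeq (GRCm38.p6).

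Libraries were grouped by the treatment label; replicate numbers follow accession order. Nothing beyond the series' statement of biological replicates was used to identify animals. Expression was tested with limma 3.58.1 in R 4.3.3 (lmFit, eBayes with a variance trend) on log2(FPKM + 1), fasted minus fed, on the 2999 genes that averaged 1 FPKM or more; 163 were below it. P-values are two-sided, with Benjamini-Hochberg adjustment over those genes and a threshold of 0.05. Fold changes on this scale understate those of low genes. The adjustment is no genome-wide rate, since the files hold only part of the annotated genes. The script was tested on simulated data.

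The members and lists were chosen with earlier results of these data known. The name rule was read as a prefix followed by a digit, or Hsp90 followed by anything, so Hspbp1 counts as a partner. Every member is named, with its value in each library, and up to 4 genes of each partner list with the smallest p. Alternatives were other scalings, a pseudocount of 0.1, no filter, no variance trend, an adjustment over all 55450 annotated genes with p set to 1 for genes not in the files, and leaving out each library.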

Additional observations from a re-analysis of the deposited data

How the results depend on the processing

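Each of the 24 chaperone genes was refitted under 12 alternatives. Under all 12, 2 genes (Dnajb6 and Hspa12a) kept direction and side of the threshold, and 16 did so if the adjustment over all annotated genes is set aside. Dnajb14, which was not called, reversed to 0.0453 with median-ratio scaling (adjusted p = 0.710). The adjustment over all annotated genes left 1 chaperone gene higher and 1 lower, 1 partner higher and 2 lower, and 172 of all genes higher and 192 lower. Its construction lowers the counts, since p is set to 1 for every gene not in the files. Median-ratio scaling left 12 chaperone genes lower (19 as deposited) and 787 of all genes lower (1482 as deposited), because it sets the middle of the genes held nearer to no change. Leaving out 1 library at a time gave 4 chaperone genes higher in every fit and 14 to 17 lower, 6 to 7 partners higher and 10 to 11 lower, and 1118 to 1221 of all genes higher and 1040 to 1300 lower. Quantile normalization left 13 chaperone genes lower and 1166 of all genes lower. That scaling, the smaller pseudocount, no filter and no variance trend left each of these counts within 1.5 times. No paired analysis was possible because the labels give no replicate numbers shared between fasted and fed mice. Depth is unknown, so no counting error can be given for any value.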
